A study of Homo sapiens with 18 samples.

Results

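The genes of cholesterol and fatty acid synthesis were followed through 18 bulk RNA sequencing libraries of human neuroblastoma xenografts. The module is a list of 29 genes named by symbol. Its rule uses no measured value, but the list was drawn up with earlier results of these data known. It holds 21 genes of the sterol branch and 8 of the fatty acid branch. Of the 29 symbols, 28 matched a gene identifier of the deposited tables, and all 28 were among the 18650 genes tested out of 63677 identifiers. ACACA, a cytosolic acetyl-CoA carboxylase, was the 1 symbol without a match and has no values here.

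Neuroblastoma is a childhood tumour of the sympathetic nervous system. Cells of the lines SKNAS, LAN-1 and KELLY were cultured and grown as tumours in mice, and bulk tumour RNA was sequenced. Each line had an Hmx1 arm and a control arm with 3 libraries per arm, which gives the 6 groups SKNAS Hmx1, SKNAS control, LAN-1 Hmx1, LAN-1 control, KELLY Hmx1 and KELLY control. No treatment is given for any library, and a MYCN amplification label stands on 2 of the 3 KELLY control libraries only. The direction and means of the Hmx1 change, the clone, the species of the sequence, and the strain and age of the host mice are not given in the labels. Whether each library of a group stands for its own mouse is not stated, so p-values refer to the scatter among these libraries alone, part of which may be technical.

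HMX1 itself, a homeobox gene, was listed at 1.24, 0.193 and 0.411 TPM in SKNAS Hmx1 libraries and at 0 in all 3 SKNAS control libraries. TPM gives a gene's share of a library after scaling for gene length. It stood at 11.5, 16.5 and 11.6 TPM in LAN-1 Hmx1 libraries, against 11.9, 11.7 and 11.1 TPM in LAN-1 control libraries. KELLY Hmx1 libraries had 6.40, 5.41 and 4.68 TPM of HMX1, against 7.72, 3.92 and 5.45 TPM in KELLY control libraries. The arms of LAN-1 and of KELLY overlapped, so the level of this gene separates the arms in SKNAS alone. MYCN stood at 837 to 898 TPM in LAN-1 control libraries and at 948 to 2000 TPM in KELLY control libraries. In SKNAS control libraries MYCN was at most 0.0891 TPM. Mitochondrially encoded genes took 4.47% to 33.8% of the TPM of a library. The spread of this share was widest in KELLY control, with 33.8%, 12.9% and 29.6%, against 18.7%, 21.0% and 15.9% in KELLY Hmx1. Since TPM is a share of a fixed total, a high mitochondrial share lowers every other value of that library. Read depth is unknown, because TPM does not carry it. In bulk tumours, fewer cells of a type and less RNA per cell cannot be told apart.

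Cells make cholesterol from acetyl-CoA through the mevalonate pathway, which yields isoprenoid units that are joined to squalene, closed to lanosterol and then trimmed step by step. Fatty acids are built from the same acetyl-CoA, lengthened and desaturated. Both branches are governed by the sterol regulatory element binding proteins: SREBF2 encodes the one that mainly drives sterol genes and SREBF1 the one that mainly drives fatty acid genes. When sterols are plentiful, INSIG1 holds their precursors in the endoplasmic reticulum. Neural tissue relies on cholesterol made in place, since lipoproteins of the blood pass into it poorly.

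These factors are known to bind the sterol regulatory element together with NF-Y, a factor that binds CCAAT boxes. Promoter sequences were taken from RefSeq on build GRCh38.p14, in windows that run from 250 bases before to 50 bases after an annotated gene start, and 18 of the 21 sterol symbols and 7 of the 8 fatty acid symbols had at least 1 window. ACAT2, FDFT1, SQLE and FASN had none. The motifs TCACNCCAC (sterol element), CCAAT (NF-Y box), GGGCGG (GC box) and CACGTG (E-box) were searched on both strands, and none of them contains another. The 250 bases before the start are shown for SREBF2, for the sterol genes MSMO1 and IDI1, whose Hmx1 effects differed between lines, and for SCD of the fatty acid branch, which differed between SKNAS and LAN-1 controls. Each reads 5′ to 3′ on the gene's strand, with the sterol element and the CCAAT boxes of either strand in capitals. The regions are chr22:41832855-41833104 (plus strand) for SREBF2, chr4:165327419-165327668 (plus strand) for MSMO1, chr10:1048887-1049136 (minus strand, 1 of 3 annotated IDI1 starts) for IDI1 and chr10:100346983-100347232 (plus strand) for SCD.
SREBF2: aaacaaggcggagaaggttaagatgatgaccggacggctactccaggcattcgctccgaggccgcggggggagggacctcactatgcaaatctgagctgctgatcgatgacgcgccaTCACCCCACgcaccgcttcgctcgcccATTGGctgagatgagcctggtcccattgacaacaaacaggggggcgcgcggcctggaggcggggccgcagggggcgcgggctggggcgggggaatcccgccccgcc
MSMO1: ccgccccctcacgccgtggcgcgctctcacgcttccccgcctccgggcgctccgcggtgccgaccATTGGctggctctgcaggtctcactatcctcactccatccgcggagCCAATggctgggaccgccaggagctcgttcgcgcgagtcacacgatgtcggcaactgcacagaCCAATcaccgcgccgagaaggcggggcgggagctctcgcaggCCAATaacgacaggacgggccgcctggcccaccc
IDI1: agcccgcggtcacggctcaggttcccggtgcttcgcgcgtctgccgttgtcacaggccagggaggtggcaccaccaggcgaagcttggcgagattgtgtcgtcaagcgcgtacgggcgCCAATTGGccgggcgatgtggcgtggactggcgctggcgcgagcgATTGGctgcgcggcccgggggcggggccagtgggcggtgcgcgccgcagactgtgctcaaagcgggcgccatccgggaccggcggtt
SCD: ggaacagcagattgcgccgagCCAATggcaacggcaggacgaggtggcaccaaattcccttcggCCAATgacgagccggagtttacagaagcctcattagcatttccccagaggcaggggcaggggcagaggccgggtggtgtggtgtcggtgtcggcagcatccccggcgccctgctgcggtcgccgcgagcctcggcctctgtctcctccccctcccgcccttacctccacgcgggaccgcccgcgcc
The SREBF2 sequence carries the sterol element and 1 CCAAT box, downstream of it and on the opposite strand. MSMO1 holds 4 CCAAT boxes, IDI1 holds 3, of which 2 overlap on opposite strands in the run CCAATTGG, and SCD holds 2. For IDI1 the window with most sterol elements and CCAAT boxes was picked, and its other windows hold 0 and 2 CCAAT boxes. A gene may have several annotated starts, and the genes of the module had 23 sterol and 11 fatty acid windows. A CCAAT box stood in 18 of the 23 sterol windows and in 6 of the 11 fatty acid windows, against 34.6% of all 35116 windows. The TCACNCCAC letters were found in a single window of the module, that of SREBF2, and in 1.13% of all windows. A GC box stood in 21 of 23 sterol and 9 of 11 fatty acid windows, against 45.0% of all, and an E-box in 4 of 23 and 0 of 11, against 7.26%. Windows of 1 gene can overlap, so that a site may be counted more than once. By gene, a CCAAT box stood in 16 of 18 sterol and 4 of 7 fatty acid genes, ACACA included. A GC box stood in 17 of 18 and 7 of 7 genes, and an E-box in 3 of 18 and 0 of 7. A match is a description of letters, not of binding. Nor does the lack of a match to a single string in these windows show that a gene has no sterol element.

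The module was expressed throughout. Every one of the 28 genes had at least 6.83 TPM in every library, the lowest value being SC5D in 1 KELLY control library. In SKNAS control the 18 sterol enzymes together made 1367 ± 187 TPM (SD, n = 3), in LAN-1 control 1347 ± 123.9 TPM and in KELLY control 828 ± 214 TPM. The 6 fatty acid enzymes together made 842 ± 122.5 TPM in SKNAS control, 933 ± 96.9 TPM in LAN-1 control and 546 ± 211 TPM in KELLY control. By group mean, FDPS, which makes farnesyl diphosphate, was the highest sterol gene in SKNAS and LAN-1 control, at 329.8 ± 44.2 and 300.5 ± 15.8 TPM. SCD, the desaturase that makes oleate, was the highest of all members in LAN-1 control with 373 ± 33.8 TPM, and ACLY, which splits citrate to cytosolic acetyl-CoA, the highest fatty acid gene in SKNAS control with 256.5 ± 26.6 TPM.

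**Figure D1:**
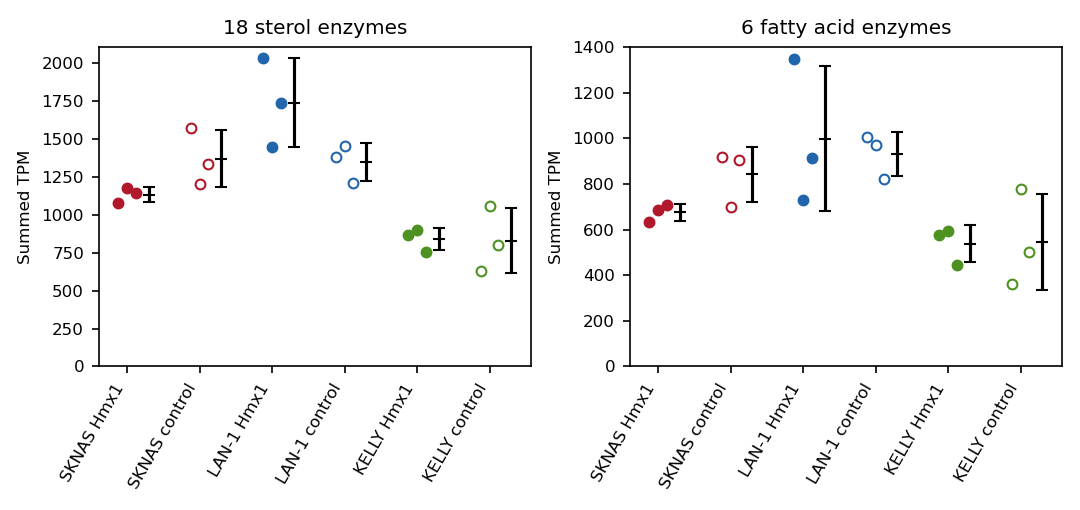
Summed TPM per library of the 18 sterol enzymes (left) and the 6 fatty acid enzymes (right), with points for libraries, filled for Hmx1 and open for control, and the mean ± SD of 3 beside them. The sterol sums of SKNAS Hmx1 lie between 1076 and 1172, below all SKNAS control sums, whereas the KELLY arms overlap.

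In SKNAS tumours, the Hmx1 arm had less transcript of most of the module. MSMO1 and ACAT2 fell, and 24 of the 28 members had a log2 change below 0, against 49.5% of all genes tested. The sterol enzymes together made 1076, 1172 and 1144 TPM in SKNAS Hmx1 libraries, against 1568, 1198 and 1334 TPM in SKNAS control libraries. The ranges did not overlap, although the highest Hmx1 library and the lowest control library were close. The fatty acid enzymes made 635, 685 and 706 TPM in SKNAS Hmx1, against 920, 701 and 905 TPM in SKNAS control, and these ranges overlapped by a small margin.

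Of the 28 members, 0 were called higher and 2 lower at an adjusted p under 0.05 (limma on log2(TPM + 1), Benjamini-Hochberg over 18650 genes), which is 2 against a background of 3.80% of genes called lower and 8.76% called in either direction. The number called is thus near the background share, and 7 members, all of the sterol branch, had an unadjusted p under 0.05, as did 18.6% of all genes. The median log2 change was -0.34 over the 28 members, -0.37 over the 21 of the sterol branch and -0.31 over the 7 of the fatty acid branch, against 0.00 over all genes tested. Ranges were apart for 11 members that were lower in Hmx1 and for 1 that was higher, where 16.0% and 14.8% of all genes tested had such ranges.

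MSMO1, the methylsterol oxidase that strips methyl groups from the sterol ring (chr4:166248775-166264312, GRCh37 as in the files), had 74.0, 78.0 and 71.9 TPM in SKNAS Hmx1 libraries, against 184, 117.9 and 122.1 TPM in SKNAS control libraries. All 3 Hmx1 libraries lay well below every control library, and 1 control library stood far above the other two. The log2 change was -0.88 ± 0.25 (SE; limma adjusted p = 0.0310). Without that high control library, replicate 1, the change was -0.68 with an adjusted p of 0.181. ACAT2, the cytosolic thiolase that joins 2 acetyl-CoA at the entry of the mevalonate pathway (chr6:160181360-160200144), had 23.1, 24.7 and 29.9 TPM in SKNAS Hmx1, against 40.7, 43.2 and 40.4 TPM in SKNAS control. The groups were apart and the controls close together, and the log2 change was -0.67 ± 0.19 (limma adjusted p = 0.0312). Each call was lost when single libraries were left out, ACAT2 in 5 of 6 such fits (adjusted p 0.0331 to 0.136) and MSMO1 in 4 of 6 (adjusted p 0.0396 to 0.181), with the direction kept in all.

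ACAT2 overlaps TCP1, a chaperonin subunit gene, on the opposite strand, and no source used here says whether the counting used strand. TCP1 averaged 148 ± 18.05 TPM in SKNAS Hmx1 and 185 ± 20.3 TPM in SKNAS control (SD, n = 3 each), with a log2 change of -0.32 and a limma adjusted p of 0.469. The part of TCP1 reads in the ACAT2 values was not tested. SREBF1, MVK and DHCR7 also overlap a gene on the opposite strand, at 72.7%, 60.6% and 31.7% of their own mean TPM. The part of those reads was not tested either.

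Of the mevalonate steps, 6 of 7 had a change below 0 in SKNAS. IDI1, which isomerises isopentenyl diphosphate, had 79.7, 84.1 and 84.0 TPM in SKNAS Hmx1 and 142, 106 and 107.4 TPM in SKNAS control, with a log2 change of -0.50 ± 0.18 (limma adjusted p = 0.101). Its Hmx1 libraries were all below the controls. HMGCS1, MVK and FDPS were likewise apart, with changes of -0.38, -0.37 and -0.26, while PMVK, the kinase that phosphorylates phosphomevalonate, had a change of 0.25 with overlapping ranges.

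Of the 11 squalene and sterol steps, 9 had a change below 0. CYP51A1, the lanosterol demethylase, which acts upstream of MSMO1, had 31.9, 38.7 and 35.9 TPM in SKNAS Hmx1, against 60.7, 47.8 and 63.1 TPM in SKNAS control. These ranges were apart by a wide margin, and the log2 change of -0.67 ± 0.22 missed the threshold (limma adjusted p = 0.0728). HSD17B7 and DHCR7, which act later on the ring, were apart too, with changes of -0.54 and -0.44. SQLE, squalene epoxidase, singled out after its values were seen, went the other way: it had 152, 208 and 196 TPM in SKNAS Hmx1, against 143, 115.5 and 132 TPM in SKNAS control. It was the 1 member with every Hmx1 library above every control library in SKNAS, with a log2 change of 0.50 ± 0.25 (limma adjusted p = 0.301), and it was called higher with median-ratio scaling (adjusted p = 0.0375).

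The regulators gave lower values without a call. INSIG1, itself a known target of the sterol regulators, had 10.6, 11.1 and 9.36 TPM in SKNAS Hmx1, against 21.5, 12.6 and 15.8 TPM in SKNAS control (log2 change -0.61 ± 0.25, limma adjusted p = 0.177). All its Hmx1 libraries were below the controls. SREBF1 had 10.2, 9.60 and 7.87 TPM in SKNAS Hmx1, against 8.96, 14.0 and 21.5 TPM in SKNAS control, and here the lowest control library fell inside the Hmx1 range (-0.56 ± 0.28, adjusted p = 0.307). SREBF2 differed little, with 33.5, 38.6 and 38.7 TPM in SKNAS Hmx1 against 42.8, 33.3 and 45.0 TPM in SKNAS control (-0.12 ± 0.23, adjusted p = 0.895). STARD4, a cytosolic sterol carrier, had a change of -0.15 with overlapping ranges.

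In the fatty acid branch, FADS2, a desaturase of polyunsaturated fatty acids, had the change farthest from 0. It had 117.6, 120.05 and 121.1 TPM in SKNAS Hmx1, against 207, 154 and 184 TPM in SKNAS control. The Hmx1 libraries were nearly identical and all below the controls, and the log2 change was -0.59 ± 0.32 (limma adjusted p = 0.358). SREBF1, given above, was second. ELOVL6, ACLY, FADS1 and SCD had changes of -0.36, -0.31, -0.26 and -0.12, and FASN, the fatty acid synthase, 0.09, all with overlapping ranges.

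Library SKNAS control replicate 1 was the highest of the 6 SKNAS libraries for 17 of 28 members, and for 20.3% of the genes above 0 in all 6. Without it, 22 of 28 members remained below 0, the median was -0.24 and 0 were called. Other values moved with the arms in SKNAS. The 8 proliferation markers summed to 673 to 793 TPM in SKNAS Hmx1, against 824 to 1091 TPM in SKNAS control, and 1 of 8 was called lower. MKI67 alone had a higher mean in SKNAS Hmx1. The 7 fibroblast markers summed to 802 to 895 TPM in SKNAS Hmx1, against 1134 to 1334 TPM in SKNAS control, with 0 called higher and 2 lower, and none of the 7 at 0. COL1A1 and COL3A1 made most of these sums. COL1A2, DCN and PDGFRB had higher means in SKNAS Hmx1 and the other fibroblast markers lower ones. The 8 mesenchymal neuroblastoma markers summed to 476 to 525 TPM in SKNAS Hmx1, against 695 to 764 TPM in SKNAS control, with 2 called lower. VIM made most of that sum, with a mean of 427 TPM in SKNAS Hmx1 and 627 TPM in SKNAS control, while the means of WWTR1 and FOSL2 were nearly equal. The 10 neuroblast markers summed to 2133 to 2462 TPM in SKNAS Hmx1, against 1622 to 2110 TPM in SKNAS control, with 2 called higher and 1 lower. CHGA, a granule protein of neuroendocrine cells, made the largest part, with a mean of 1508 TPM in SKNAS Hmx1 and 825 TPM in SKNAS control. GATA3 and DDC also had higher means in SKNAS Hmx1, and the other neuroblast markers lower ones. The 7 macrophage markers summed to 190.2 to 287 TPM in SKNAS Hmx1, against 78.0 to 105 TPM in SKNAS control. That sum rests on PTPRC, with a mean of 230.6 TPM in SKNAS Hmx1 and 91.9 TPM in SKNAS control. Only 3 of the 7 were tested, with 1 called higher and 1 lower. Under 1 TPM in all 3 libraries were 5 of the 7 in SKNAS Hmx1 and 4 in SKNAS control. The part of these marker groups in the module's change was not tested. Adipocyte markers, genes of a cell type rich in fatty acid synthesis, summed to at most 1.18 TPM in SKNAS Hmx1 and at most 1.89 TPM in SKNAS control, with 3 and 2 of the 8 at 0 in all 3 libraries, ADIPOQ and LEP among them in both arms.

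**Figure D2:**
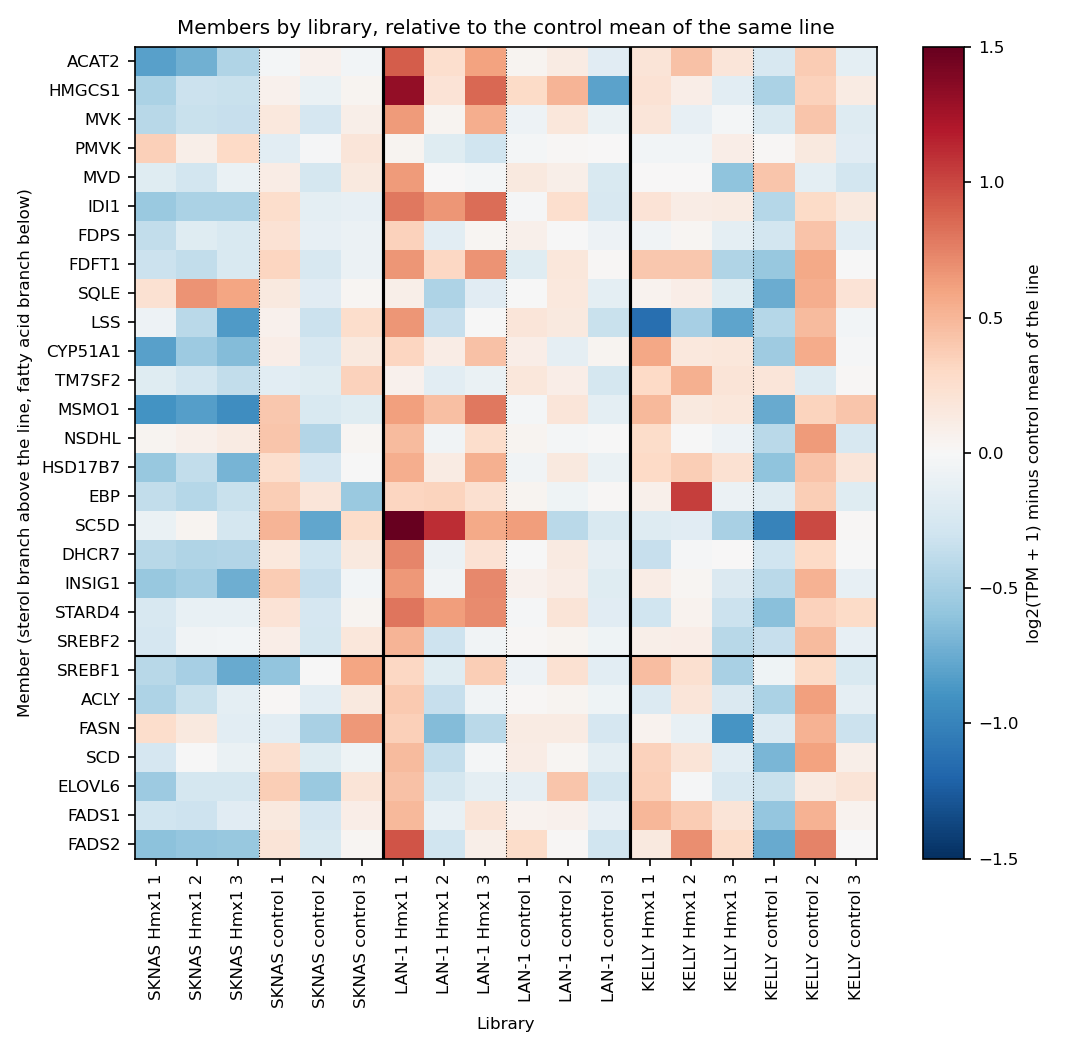
Difference in log2(TPM + 1) of each member in each of the 18 libraries from the control mean of its own line, as a colour from blue (lower) to red (higher) that saturates at 1.5, with members in rows and the sterol branch above the line. SKNAS Hmx1 columns are mostly blue, and KELLY columns differ most between control replicates 1 and 2. LAN-1 Hmx1 columns are reddest in replicate 1, in both branches, while red in replicates 2 and 3 lies mainly in the sterol rows.

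In LAN-1 tumours the sterol genes lay on the other side. The Hmx1 arm had higher values of most sterol members and no shared shift of the fatty acid members, and no member was called. The sterol enzymes made 2032, 1442 and 1737 TPM in LAN-1 Hmx1 libraries, against 1382, 1449 and 1209 TPM in LAN-1 control libraries. The lowest Hmx1 library fell just inside the control range. The fatty acid enzymes made 1350, 731 and 914 TPM in LAN-1 Hmx1, against 1006, 969 and 823 TPM in LAN-1 control, so that the Hmx1 libraries lay on both sides of the controls. The ratio of the sterol sum to the fatty acid sum was 1.51, 1.97 and 1.90 in LAN-1 Hmx1 and 1.37, 1.50 and 1.47 in LAN-1 control, higher in each Hmx1 library than in each control library, though by little in the first.

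By limma, 0 of 28 members were called in LAN-1, 6 had an unadjusted p under 0.05 against 7.19% of all genes, and 0.450% of all genes tested were called. The median log2 change was 0.24 over the 28 members, 0.30 over the sterol branch and 0.03 over the fatty acid branch, against -0.05 over all genes tested. A change above 0 was found in 24 of 28 members, against 38.1% of all genes. Ranges were apart for 7 members, all of the sterol branch and all higher in Hmx1, where 6.34% of genes had ranges apart in that direction and 9.47% in the other. They were IDI1, STARD4, MSMO1, ACAT2, FDFT1, EBP and CYP51A1.

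SC5D, which introduces a late double bond into the sterol ring, had 64.6, 38.9 and 26.4 TPM in LAN-1 Hmx1, against 27.7, 13.0 and 14.8 TPM in LAN-1 control. The Hmx1 libraries were spread widely and the lowest of them fell under the highest control, and the log2 change of 1.16 ± 0.43 was not called (limma adjusted p = 0.465). HMGCS1, which makes the substrate of the committed step, had 244, 112.4 and 178 TPM in LAN-1 Hmx1, against 119.2, 139.5 and 55.6 TPM in LAN-1 control (0.79 ± 0.30, adjusted p = 0.493). It too overlapped. IDI1 was tighter, with 168, 155 and 175 TPM in LAN-1 Hmx1 against 96.4, 115.8 and 82.3 TPM in LAN-1 control. All its Hmx1 libraries were far above the controls, with a log2 change of 0.76 ± 0.18 that just missed the threshold (limma adjusted p = 0.0757).

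ACAT2 had 184, 115.9 and 148 TPM in LAN-1 Hmx1, against 100.4, 106 and 86.7 TPM in LAN-1 control, a change of 0.59 ± 0.19 (limma adjusted p = 0.301) with ranges apart. MSMO1 had 117.7, 105 and 133 TPM in LAN-1 Hmx1, against 75.0, 86.6 and 69.0 TPM in LAN-1 control, a change of 0.62 ± 0.25 (adjusted p = 0.544), also with ranges apart. STARD4, singled out after its values were seen, had 92.5, 81.5 and 86.6 TPM in LAN-1 Hmx1, against 51.9, 60.1 and 46.4 TPM in LAN-1 control (0.71 ± 0.21, adjusted p = 0.245). Its 3 Hmx1 libraries were above the controls as well. Other genes that act beside them, NSDHL and HSD17B7 on the ring and HMGCS1 at the entry, had ranges that overlapped.

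The regulators did not separate. SREBF2 had 153, 85.9 and 103 TPM in LAN-1 Hmx1, against 108.5, 110.2 and 102 TPM in LAN-1 control (0.05 ± 0.23, limma adjusted p = 1.0), SREBF1 had 27.1, 18.8 and 28.1 TPM against 20.5, 25.5 and 19.2 TPM in control (0.17 ± 0.28, adjusted p = 1.0). INSIG1 had 29.0, 17.5 and 30.6 TPM in LAN-1 Hmx1, against 19.1, 19.7 and 16.0 TPM in LAN-1 control (0.44 ± 0.25, adjusted p = 0.831). For each of these the second Hmx1 library was the lowest of its arm and lay inside or below the control range. Of the fatty acid genes, FADS2 had 288, 121.5 and 159.9 TPM in LAN-1 Hmx1 against 182, 152 and 121.5 TPM in LAN-1 control (0.24 ± 0.32), and FASN had 154, 75.9 and 90.3 TPM in LAN-1 Hmx1 against 131, 131 and 101 TPM in LAN-1 control (-0.24 ± 0.32). Both overlapped, and both had adjusted p = 1.0.

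LAN-1 Hmx1 replicate 1 was the highest library of the line for 19 of 28 members and for 34.3% of the genes above 0 in all 6. Without it, 16 of 28 members were above 0, the median over all members was 0.08, that of the sterol branch 0.29 and that of the fatty acid branch -0.19. LAN-1 control replicate 3 was the lowest library of the line for 14 of 28 members and for 14.6% of those genes. Without it, 20 of 28 members were above 0, the median over all members was 0.17, that of the sterol branch 0.31 and that of the fatty acid branch -0.03. LAN-1 Hmx1 replicate 2 was the lowest for 9 of 28 members and for 32.7% of those genes, and the median over all members was 0.36 without it. Proliferation markers summed to 655 to 832 TPM in LAN-1 Hmx1, against 734 to 877 TPM in LAN-1 control, and fibroblast markers to 15.4 to 50.5 TPM in LAN-1 Hmx1, against 21.0 to 30.8 TPM in LAN-1 control, both overlapping. The 10 neuroblast markers summed to 3012 to 3226 TPM in LAN-1 Hmx1, against 4274 to 4681 TPM in LAN-1 control, with no overlap. CHGA made the largest part of that sum, with a mean of 1420 TPM in LAN-1 Hmx1 and 2518 TPM in LAN-1 control. The 8 mesenchymal neuroblastoma markers summed to 138.3 to 210.1 TPM in LAN-1 Hmx1, against 206 to 282 TPM in LAN-1 control, a small overlap, with SNAI2 at 0 in all libraries of both arms. By limma 0 genes of these 4 lists were called in LAN-1, and their part in the module's values was not tested.

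In KELLY tumours no shift of the module was seen at this spread between libraries. By limma 0 of 28 members were called, 1 had an unadjusted p under 0.05 against 6.85% of all genes, and 0.0912% of all genes were called. The log2 change was above 0 for 17 members and below 0 for 11 (9 and 19 without mitochondrially encoded genes), where 53.1% of all genes were above 0, with a median of 0.04 against 0.02 over all genes. The sterol enzymes made 867, 896 and 754 TPM in KELLY Hmx1, against 630, 1055 and 799 TPM in KELLY control, and the fatty acid enzymes 577, 594 and 445 TPM in KELLY Hmx1, against 362, 776 and 501 TPM in KELLY control. For both sums the control libraries were the lowest and the highest of the line.

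LSS, the cyclase that closes squalene epoxide to lanosterol, had the change farthest from 0, with 15.7, 25.1 and 20.3 TPM in KELLY Hmx1 against 26.2, 49.97 and 34.9 TPM in KELLY control. Its ranges were just apart, as for 2.21% of all genes in this direction, and the change of -0.81 ± 0.29 was not called (limma adjusted p = 0.570). TM7SF2, a sterol reductase, had 16.8, 20.1 and 15.6 TPM in KELLY Hmx1 against 15.5, 11.7 and 13.7 TPM in KELLY control (0.34 ± 0.18, adjusted p = 0.791). It was the 1 member higher in every Hmx1 library, by a narrow margin, where 4.46% of all genes were. EBP, a sterol isomerase, had 38.2, 74.8 and 33.7 TPM in KELLY Hmx1 against 31.4, 47.0 and 31.6 TPM in KELLY control (0.34 ± 0.26, adjusted p = 0.925). A single Hmx1 library carried that difference.

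The genes called elsewhere did not separate in KELLY. ACAT2 had 59.7, 71.0 and 59.3 TPM in KELLY Hmx1 against 43.9, 68.1 and 46.8 TPM in KELLY control (0.28 ± 0.19), MSMO1 had 70.5, 55.4 and 56.2 TPM against 29.3, 63.6 and 66.9 TPM in control (0.26 ± 0.25). IDI1 had 85.7, 80.1 and 81.0 TPM in KELLY Hmx1 against 54.9, 90.6 and 82.4 TPM in KELLY control (0.14 ± 0.18). In each the first control library was the lowest of all 6. FADS2 and FADS1 had changes of 0.37 ± 0.32 and 0.36 ± 0.22, with 55.5, 81.5 and 60.4 TPM of FADS2 in KELLY Hmx1 against 29.3, 84.6 and 50.1 TPM in KELLY control, and 42.3, 39.0 and 34.0 TPM of FADS1 against 19.6, 42.9 and 30.9 TPM in control. SREBF1 had 43.1, 37.1 and 21.9 TPM in KELLY Hmx1 against 29.8, 38.2 and 26.4 TPM in KELLY control. SREBF2 had 83.0, 83.4 and 58.2 TPM in KELLY Hmx1 against 61.2, 108.7 and 71.4 TPM in KELLY control, and INSIG1 15.5, 14.7 and 12.2 TPM against 10.6, 21.1 and 13.1 TPM in control. The changes of these 3 regulators lay between -0.08 and 0.07, inside the spread of the controls.

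KELLY control replicate 1 was the lowest library of the line for 20 of 28 members and for 50.8% of the genes above 0 in all 6, and replicate 2 the highest for 20 of 28 and for 49.3% of those genes. Without control replicate 1 the median over the members was -0.13 with 8 above 0, and without control replicate 2 it was 0.23 with 24 above 0. After rescaling without mitochondrially encoded genes it was -0.09 with 9 above 0. The direction of the module in KELLY thus rests on which control library is kept and on the scaling, and these 2 libraries had the highest and the lowest mitochondrial share of the line.

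**Figure D3:**
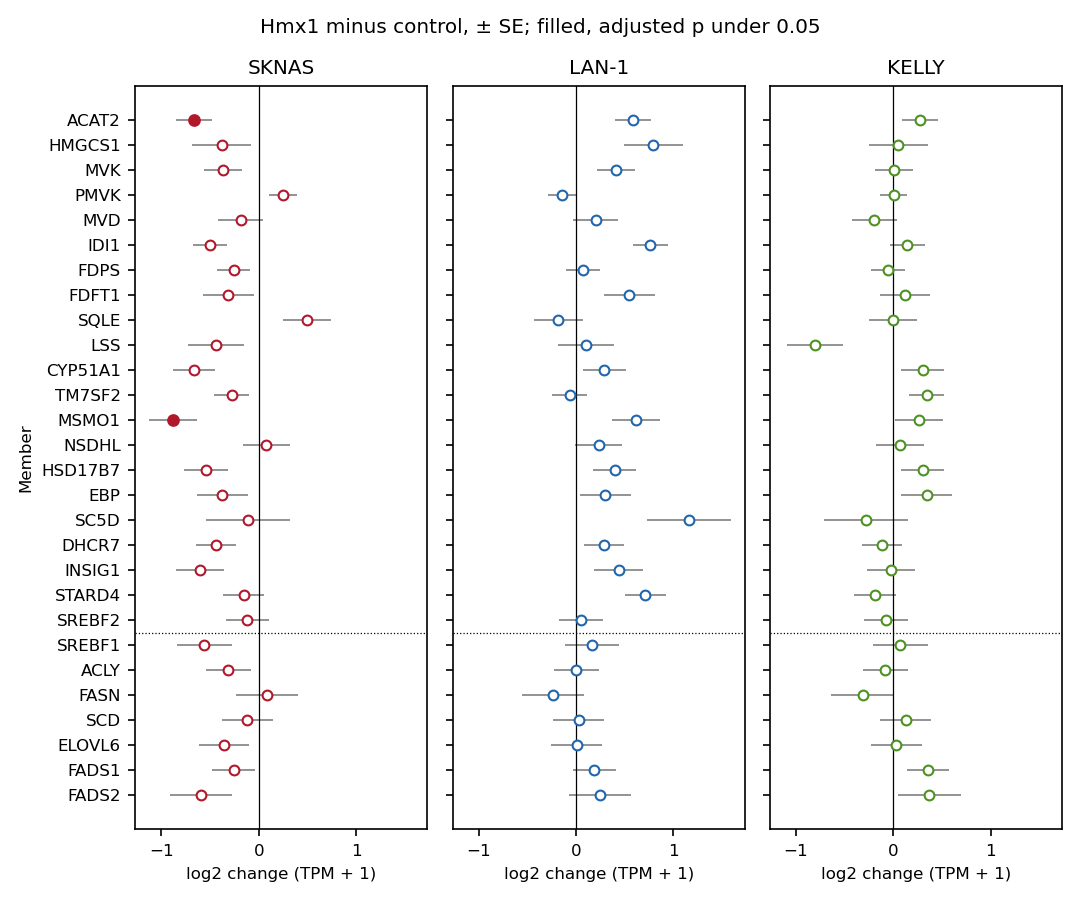
Log2 change of each member in Hmx1 relative to control, on the log2(TPM + 1) scale, in SKNAS, LAN-1 and KELLY, with bars for 1 SE on either side and filled points for an adjusted p under 0.05. SKNAS points lie mostly left of 0 with ACAT2 and MSMO1 filled, LAN-1 points above the dotted line, the sterol branch, mostly right of 0, and KELLY points on both sides.

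The Hmx1 effect was then compared between lines, by a test of the difference itself. ACAT2, IDI1 and MSMO1 had a lower Hmx1 effect in SKNAS than in LAN-1, and they are the 3 of 28 members called in that difference, all in the same direction, against 4.99% of all genes called and 2.01% called lower. The median difference was -0.70 over the members, -0.77 over the sterol branch and -0.36 over the fatty acid branch, against 0.06 over all genes, and 11 members, all of the sterol branch, had an unadjusted p under 0.05, against 15.5% of all genes. The difference was below 0 for 25 of 28 members and for 43.8% of all genes. A log2 change below 0 in SKNAS together with one above 0 in LAN-1 was found in 23 of the 28 members, 82.1%, against 19.5% of all genes tested. This count largely follows from the 24 of 28 members below 0 in SKNAS and the 24 of 28 above 0 in LAN-1, and is no separate evidence. By branch it was 17 of 21 sterol members and 6 of 7 fatty acid members, but the LAN-1 changes of ACLY, ELOVL6 and SCD were close to 0, at 0.0012, 0.0083 and 0.028. Without mitochondrially encoded genes the count was 21 of 28, and 4 of 7 fatty acid members were above 0 in LAN-1. Without LAN-1 Hmx1 replicate 1 the count was 15 of 28, and without LAN-1 control replicate 3 it was 19.

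The difference of the Hmx1 effect in SKNAS minus that in LAN-1 was -1.27 ± 0.25 for IDI1 (limma adjusted p = 0.00438) and -1.25 ± 0.26 for ACAT2 (adjusted p = 0.00716). Both held in each of the 12 fits that left out 1 library of these lines, with adjusted p of at most 0.0170 for IDI1 and 0.0258 for ACAT2. For MSMO1 it was -1.50 ± 0.35 (adjusted p = 0.0149), and this call held in 11 of 12 such fits, the exception being the one without SKNAS control replicate 1 (-1.30, adjusted p = 0.0503). The other members nearest to a call were CYP51A1, HSD17B7 and INSIG1, with differences of -0.96, -0.94 and -1.04 and adjusted p of 0.0983, 0.113 and 0.117. For TCP1, the overlapping neighbour of ACAT2, the difference was -0.22 (adjusted p = 0.814).

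Between SKNAS and KELLY, ACAT2 was the 1 member called, with a difference of -0.94 ± 0.26 (limma adjusted p = 0.0495), against 4.85% of all genes called and 2.35% called lower. Of the members, 7 had an unadjusted p under 0.05, against 16.8% of all genes. The ACAT2 call lay at the threshold and was lost in 10 of the 12 fits without 1 library. MSMO1 and CYP51A1 had differences of -1.15 and -0.97 with adjusted p of 0.0759 and 0.0924. Between LAN-1 and KELLY 0 members were called by limma, 4 had an unadjusted p under 0.05 against 6.87% of all genes, and 0.209% of all genes were called. These comparisons share libraries with one another and are no separate evidence.

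The control arms were compared between lines for the levels from which these changes start. SKNAS and LAN-1 controls had similar sterol sums in TPM as deposited but differed in single genes. Without mitochondrially encoded genes the sterol sums were 1657 ± 174 TPM in SKNAS control and 1436 ± 138 TPM in LAN-1 control (SD, n = 3 each). Those ranges overlapped by a small margin. Of the 28 members, 4 were higher and 7 lower in SKNAS control than in LAN-1 control by limma, against 31.5% and 20.5% of all genes. The median over all genes was 0.18, and with libraries scaled by their median ratio it was 0.05, with 4 members called higher and 12 lower. Rescaled without mitochondrially encoded genes, 8 were called higher and 6 lower. As deposited, MSMO1, STARD4, ACLY and ELOVL6 were higher, and SCD, SREBF2, FASN, ACAT2, MVD, TM7SF2 and PMVK lower.

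SCD had 161, 119.6 and 129 TPM in SKNAS control, against 403, 380.3 and 336 TPM in LAN-1 control, far apart, with a log2 difference of -1.45 ± 0.26 (limma adjusted p = 1.61e-04). ELOVL6, which lengthens palmitate, was the reverse, with 111.7, 58.5 and 98.6 TPM in SKNAS control against 28.1, 41.5 and 25.3 TPM in LAN-1 control (1.45 ± 0.26, adjusted p = 1.60e-04). SREBF2 stood at 42.8, 33.3 and 45.0 TPM in SKNAS control against 108.5, 110.2 and 102 TPM in LAN-1 control (-1.39 ± 0.23, adjusted p = 5.51e-05). The ranges of these 3 genes did not touch.

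ACAT2 had 40.7, 43.2 and 40.4 TPM in SKNAS control against 100.4, 106 and 86.7 TPM in LAN-1 control (-1.21 ± 0.19, limma adjusted p = 3.18e-05). TCP1, its overlapping neighbour, was lower in SKNAS control as well (-0.90, limma adjusted p = 0.00137). It averaged 185 TPM in SKNAS control and 345 TPM in LAN-1 control. The part of TCP1 reads in this ACAT2 difference was not tested. MVD, the decarboxylase of the mevalonate pathway, had 9.81, 7.32 and 10.1 TPM in SKNAS control against 19.9, 19.1 and 15.1 TPM in LAN-1 control (-0.92 ± 0.23, adjusted p = 0.00281). STARD4 had 114.6, 83.1 and 102 TPM in SKNAS control against 51.9, 60.1 and 46.4 TPM in LAN-1 control (0.90 ± 0.21, adjusted p = 0.00179). The ranges of ACAT2, MVD and STARD4 were apart as well.

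Against KELLY control, both other lines had higher values for most members. In SKNAS control 16 members were higher and 4 lower, against 49.5% and 16.1% of all genes, and in LAN-1 control 14 were higher and 1 lower, against 38.2% and 13.6%. The median over all genes was itself 0.54 for SKNAS and 0.34 for LAN-1 relative to KELLY. When libraries were scaled by their median ratio these medians were 0.02 and -0.01, and the calls became 7 higher and 7 lower for SKNAS and 9 higher and 3 lower for LAN-1. The direction of the module relative to KELLY thus depends on the scaling.

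FADS1, a desaturase that acts after FADS2, had 137, 104 and 132 TPM in SKNAS control and 146, 147 and 129 TPM in LAN-1 control, against 19.6, 42.9 and 30.9 TPM in KELLY control. The log2 difference from KELLY was 2.02 ± 0.22 in SKNAS (limma adjusted p = 4.45e-07) and 2.21 ± 0.22 in LAN-1 (adjusted p = 2.95e-07). FADS2 had 207, 154 and 184 TPM in SKNAS control and 182, 152 and 121.5 TPM in LAN-1 control, against 29.3, 84.6 and 50.1 TPM in KELLY control, with differences of 1.83 ± 0.32 (adjusted p = 8.72e-05) and 1.56 ± 0.32 (adjusted p = 5.99e-04). Both genes were far lower in KELLY than in either line. FADS1 and FADS2 lie on opposite strands of chromosome 11 with overlapping coordinates in the files, and FADS2 also spans FEN1 on its own strand, so their reads may not have been told apart. Relative to KELLY control, FEN1 was higher by 0.84 in SKNAS control (limma adjusted p = 3.62e-04) and by 0.05 in LAN-1 control (adjusted p = 0.848).

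MVD, SREBF1, SREBF2 and FASN were the 4 lower in SKNAS than in KELLY. RAI1, which overlaps SREBF1 on the opposite strand, was lower in SKNAS control as well (-0.78, limma adjusted p = 0.0200). The part of RAI1 reads in the SREBF1 values was not tested. MVD had 9.81, 7.32 and 10.1 TPM in SKNAS control against 51.2, 34.4 and 31.3 TPM in KELLY control (-1.97 ± 0.23, limma adjusted p = 1.09e-06). LAN-1 control, with 19.9, 19.1 and 15.1 TPM, was also lower than KELLY control (-1.05 ± 0.23, adjusted p = 0.00114). STARD4 had 20.0, 39.9 and 38.2 TPM in KELLY control and was 1.63 ± 0.21 higher in SKNAS control (adjusted p = 3.78e-06), and MSMO1 was 1.45 ± 0.25 higher there (adjusted p = 7.01e-05). HSD17B7, which reduces a sterol ketone, had 39.8, 27.8 and 32.9 TPM in SKNAS control and 28.1, 32.5 and 27.1 TPM in LAN-1 control, against 8.23, 17.9 and 14.9 TPM in KELLY control. It was higher by 1.28 ± 0.22 in SKNAS (adjusted p = 8.15e-05) and by 1.10 ± 0.22 in LAN-1 (adjusted p = 5.30e-04). The files list 2 named copies of HSD17B7 with up to 8.50 TPM together, between which reads may have been split.

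TM7SF2 had 48.4, 46.1 and 35.7 TPM in LAN-1 control against 15.5, 11.7 and 13.7 TPM in KELLY control (1.60 ± 0.18, limma adjusted p = 1.09e-06). Its coordinates overlap those of VPS51 on the same strand, itself higher by 0.79 in LAN-1 control than in KELLY control (adjusted p = 6.65e-04). The part of VPS51 reads in the TM7SF2 values was not tested. FDFT1, which makes squalene, had 117.6, 149.6 and 135 TPM in LAN-1 control against 31.3, 70.2 and 46.6 TPM in KELLY control (1.49 ± 0.26, adjusted p = 1.44e-04), and NSDHL, a sterol dehydrogenase, 46.3, 44.1 and 45.1 TPM in LAN-1 control against 15.3, 32.4 and 17.2 TPM in KELLY control (1.11 ± 0.24, adjusted p = 0.00114). TM7SF2, FDFT1 and NSDHL each had ranges apart. By control mean of TPM as deposited, the order SKNAS, LAN-1, KELLY from high to low held for 13 of 28 members. The order LAN-1, SKNAS, KELLY held for 8, so that KELLY was lowest for 21. The other orders put SREBF1 and MVD highest in KELLY, ACLY highest in SKNAS and lowest in LAN-1, and ACAT2, SREBF2, FASN and SCD highest in LAN-1 and lowest in SKNAS. With median-ratio scaling, the log2 difference from KELLY control was above 0 for 16 of 28 members in SKNAS control and for 15 of 28 in LAN-1 control.

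**Figure D4:**
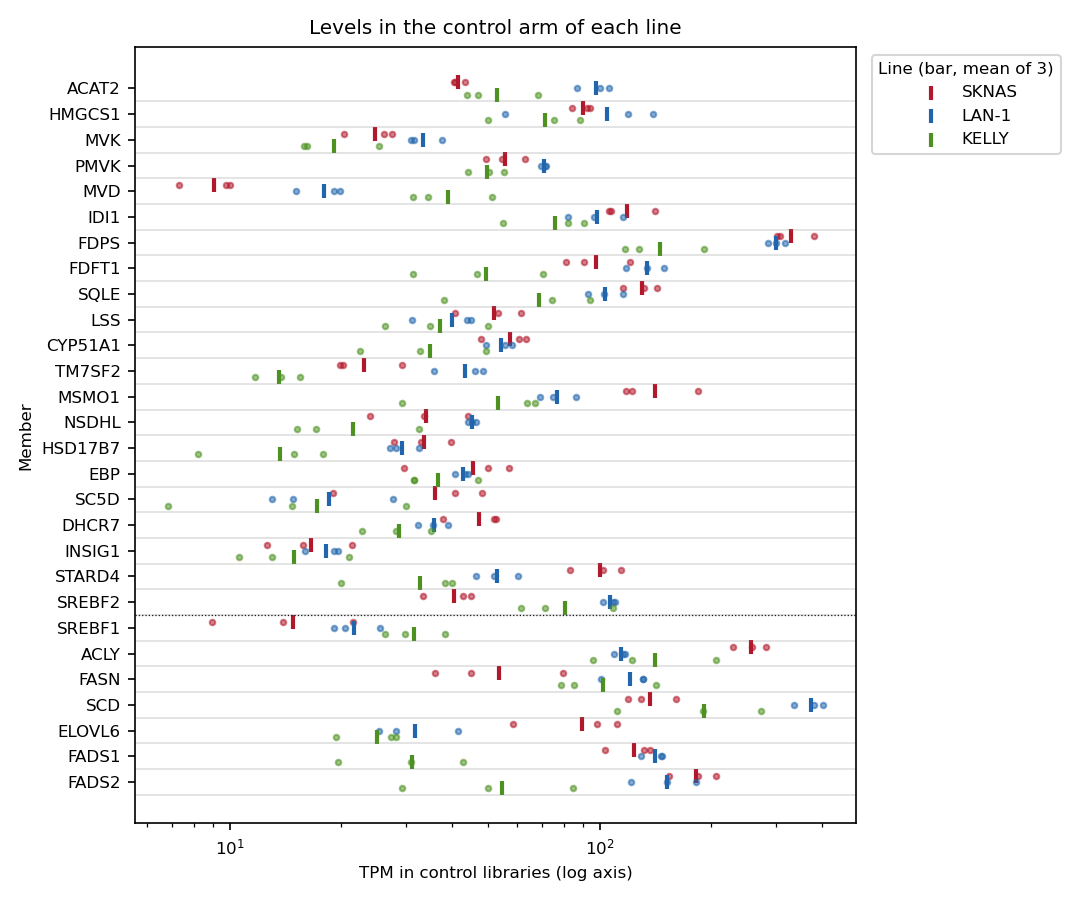
TPM of each member in the 3 control libraries of SKNAS, LAN-1 and KELLY on a log axis, with points for libraries and bars for the mean of 3. KELLY is lowest for FADS1 and FADS2, highest for MVD.

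Other genes of sterol handling and fatty acid metabolism were read from a list of 57, of which 49 were tested. In SKNAS Hmx1 5 were called higher and 2 lower by limma, against 4.96% and 3.80% of all genes. MLXIPL, a glucose-responsive regulator of fatty acid synthesis, had 3.72 ± 1.74 TPM in SKNAS Hmx1 and 0.601 ± 0.276 TPM in SKNAS control (SD, n = 3 each), a log2 change of 1.49 (adjusted p = 2.62e-04). ABCG1, a sterol exporter, had 1.38 ± 0.220 TPM in SKNAS Hmx1 and 0.167 ± 0.0375 TPM in SKNAS control (1.03, adjusted p = 0.00307). ACSL6, which activates fatty acids, and the elongases ELOVL2 and ELOVL7 rose by 1.16, 0.85 and 0.51. SOAT2, which esterifies cholesterol, had 0.434 ± 0.0936 TPM in SKNAS Hmx1 and 1.50 ± 0.319 TPM in SKNAS control (-0.80, adjusted p = 1.56e-04), and APOE, a lipid carrier, 5.34 ± 1.52 TPM in SKNAS Hmx1 and 12.3 ± 1.72 TPM in SKNAS control (-1.09, adjusted p = 0.0251). Most of these levels are low, and the scale of log2(TPM + 1) understates their change. In LAN-1 and in KELLY 0 of the 49 were called by limma.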

How the data were processed

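Total RNA of bulk xenograft tumours was taken with a lipid tissue kit, made into stranded poly(A) libraries and sequenced as 125 bp pairs, per the labels' protocols. Per the submitters' processing notes, bcl2fastq, STAR, FastQC and the builds GRCh38.p12 and GRCh37 were used, in roles those notes do not give. The counting tool, its use of strand and any removal of mouse reads were not found in the labels or headers. The deposited tables give, per the file headers, TPM, FPKM and coverage for each of 63677 gene identifiers. The TPM values of each library, as deposited, sum to 1000000. The FPKM values, as deposited, served as an alternative, and the coverage (signal) values the authors deposited were not used. The last gene end on chromosome 1, at 249231242, lies past that of the GRCh38 annotation (248937099), so coordinates are read as GRCh37.

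Identifiers were matched to symbols, 52181 in all. limma 3.58.1 (R 4.3.3) was fitted to log2(TPM + 1) with a mean-variance trend, 6 group means and all 18 libraries, for the 18650 genes with at least 1 TPM in 3 or more libraries. Tests were two-sided, with Benjamini-Hochberg adjustment over these genes and a threshold of 0.05, and the script was tested on simulated data. Changes are differences of log2(TPM + 1), which understates those of low genes. Groups follow the sample titles. Alternatives were a pseudocount of 0.1, no filter, FPKM, median-ratio scaling, TPM rescaled without mitochondrially encoded genes, a fit of only the groups compared, and leaving out each library in turn.

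The members and all gene lists were chosen with earlier results of these data known. Values per library are given for members called in an Hmx1 comparison or difference, for the 3 sterol and 2 fatty acid members with the largest change in each line, for the 4 sterol and 2 fatty acid members with the largest called difference for each pair of control arms, and for SREBF1, SREBF2 and INSIG1. SQLE in SKNAS and STARD4 in LAN-1 were named after their values were seen. Promoters are from RefSeq, GRCh38.p14.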

Additional observations from a re-analysis of the deposited data

Results flagged for a closer look

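For 3 genes the Hmx1 effect differed between lines by a direct test of the difference (limma, adjusted over all genes tested). In SKNAS minus LAN-1 the difference was -1.27 for IDI1, -1.25 for ACAT2 and -1.50 for MSMO1, with the SKNAS change below 0 and the LAN-1 change above 0 for each. In SKNAS minus KELLY it was -0.94 for ACAT2, at an adjusted p of 0.0495. The cause of these differences was not tested.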

How the results depend on the processing

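Counts of called members moved with the scaling. In SKNAS, 2 members were called, against 1 with no filter, 4 with FPKM, 6 with median-ratio scaling (5 lower and SQLE higher), 4 without mitochondrially encoded genes, 5 with only the groups compared and 0 to 1 when 1 library was left out. In LAN-1, 0 were called, against 2, 3 and 1 with FPKM, median-ratio scaling and no mitochondrially encoded genes. IDI1 was among them under all 3, with adjusted p of 0.0109, 0.0063 and 0.0279, while under the remaining alternatives it was not called. In KELLY 0 were called throughout. For SKNAS minus LAN-1, 3 were called, against 8, 10 and 7 with FPKM, median-ratio scaling and only the groups compared, and 2 to 4 with 1 library left out. For SKNAS minus KELLY, 1 was called, against 0 with a pseudocount of 0.1, 0 with no filter, 3 with FPKM, 4 with median-ratio scaling, 0 with only the groups compared, and 0 to 4 with 1 library left out (4 without KELLY control replicate 2). For LAN-1 minus KELLY, 0 were called, against 1 with median-ratio scaling and 0 to 1 with 1 library left out (1 without KELLY control replicate 1). Rescaled without mitochondrially encoded genes, the mean sterol sum was 1359 TPM in SKNAS Hmx1 and 1657 TPM in SKNAS control, 1033 TPM in KELLY Hmx1 and 1099.95 TPM in KELLY control, and the fatty acid sum 811 TPM in SKNAS Hmx1, 1019.97 TPM in SKNAS control and 664 TPM in KELLY Hmx1. Without mitochondrially encoded genes the members above 0 numbered 9 rather than 17 in KELLY and 22 rather than 24 in LAN-1. Among the Hmx1 changes given with values per library in a line, uncalled log2 changes that turned sign were in KELLY, with 1 library left out, EBP (-0.0057 to 0.56), FADS2 (-0.0046 to 0.74), IDI1 (-0.070 to 0.29), INSIG1 (-0.22 to 0.24), MSMO1 (-0.11 to 0.47), SREBF1 (-0.12 to 0.35, and -0.060 without mitochondrially encoded genes) and SREBF2 (-0.25 to 0.16), and in LAN-1 FADS2 (-0.10 to 0.52) and SREBF2 (-0.18 to 0.23). The cause was not tested. No paired analysis was possible because the numbering of libraries follows their accessions and matches none across arms.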
